A study of Bombus terrestris with 8 samples.

Results

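The mir-279 and mir-996 family of Bombus terrestris comprised 4 of the 65 entries in the table of sequenced miRNAs. They were taken by name, as bte-mir-279a, bte-mir-279b, bte-mir-279c and bte-mir-996, because their mature sequences carry 1 common seed. The seed is the stretch from base 2 to base 8 through which a miRNA pairs with its target transcripts. Small RNA was sequenced from whole bodies of diploid female larvae destined to become workers, from 4 colonies, in 8 libraries. The early group (4 libraries) held larvae of the first and the second instar, and the late group (4 libraries) held larvae of the fourth instar. The labels give no treatment for either group, and each library was made from larvae of a single colony and stage that had been pooled before extraction. Each colony gave 2 libraries, so early and late larvae share colonies, but the sample descriptions do not say which colony a replicate number stands for. The tests below therefore treat the 8 pools as independent samples.

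In Drosophila melanogaster, mir-279 and mir-996 are neighbouring genes whose products share a seed and can replace each other in several tissues. There they limit the formation of sensory neurons, among them the CO2-sensing neurons of the head, and mir-279 also acts on JAK/STAT signalling in migrating border cells and in the output of the circadian clock. No role of the additional copies mir-279b and mir-279c is taken as known here.

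The mature sequences are shown first because the seed defines the family and the bases behind it tell the members apart. They are written 5′ to 3′ in the DNA letters of the deposited table, with the seed in capitals.
bte-mir-279a: tGACTAGAtccacactcattaa
bte-mir-279c: tGACTAGAgtcacactcgtcca
bte-mir-996: tGACTAGAtacatactcgtcta
bte-mir-279b: tGACTAGAtcgaaatactcgtcct
A perfect target site for bases 2 to 8 would read TCTAGTC. Over the first 22 bases, 11 positions were the same in all 4 members, of which 8 were the leading bases and 3 lay behind them. Without bte-mir-279b the other members had 16 identical positions. The closest pair was bte-mir-279c and bte-mir-996, with 4 differing bases of 22, and the most distant was bte-mir-279b and bte-mir-279c, with 11. Counted from 1 at the 5′ end and with the base of bte-mir-279a first, bte-mir-996 carried C10A, C13T, A18G, T20C and A21T, and bte-mir-279c carried T9G, C10T, A18G, T20C and A21C. The run ACTCGTC near the 3′ end was common to 3 members. It began at base 14 in bte-mir-279c and bte-mir-996 and at base 16 in bte-mir-279b, which was 24 nt long where the others were 22 nt. No mature sequence of the family occurred in the precursor of another entry, and 0 of the 60 other distinct mature sequences had this seed or a seed shifted by 1 base from it. How many mismatches were allowed when reads were counted is not given in the sources used here.

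Each member came from a hairpin of its own, shown next with the mature sequence in capitals because its place in the hairpin was the same throughout.
bte-mir-279a: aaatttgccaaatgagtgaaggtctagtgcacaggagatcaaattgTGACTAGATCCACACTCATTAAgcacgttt
bte-mir-279c: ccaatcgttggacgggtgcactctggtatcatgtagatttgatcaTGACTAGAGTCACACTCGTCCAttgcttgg
bte-mir-996: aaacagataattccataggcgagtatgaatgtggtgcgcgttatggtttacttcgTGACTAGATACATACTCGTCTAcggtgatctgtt
bte-mir-279b: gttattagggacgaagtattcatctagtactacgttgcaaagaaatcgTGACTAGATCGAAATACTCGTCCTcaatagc
All 4 mature sequences lay on the 3′ arm. The precursors were 75 to 89 nt long, against a median of 77 nt over the 65 entries. Folded with RNAfold, they had minimum free energies of −36.8 kcal/mol for bte-mir-996, −34.0 for bte-mir-279c, −29.2 for bte-mir-279a and −28.2 for bte-mir-279b, against a median of −34.0 over the 65 entries. In the folded hairpins 18 of the 22 bases of mature bte-mir-279a were paired, 20 of 22 in bte-mir-279c and bte-mir-996, and 22 of 24 in bte-mir-279b. The authors predicted the mir-279 members with miRCat, which searches the sequence around mapped small RNAs for hairpins. bte-mir-996 is listed as conserved between Bombus and other species. For honeybee homologs that its prediction programs missed, the paper asked for a similar mature sequence, a clear hairpin and a minimum number of reads. A hairpin was thus part of what selected these entries. Reads in these libraries were also part of it for the mir-279 members, because miRCat worked from the mapped reads. For bte-mir-996 they may have been, through the minimum number of reads.

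**Figure D1:**
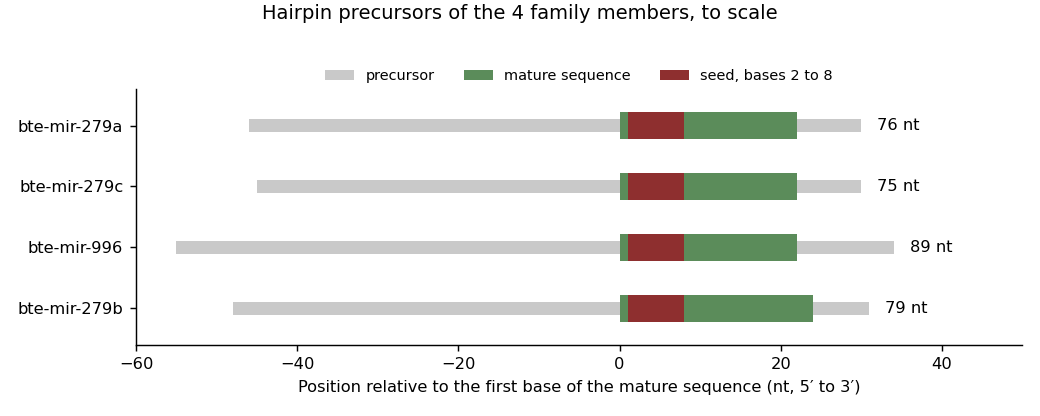
Hairpin precursors of the 4 members drawn to scale, with position in nt from the first base of the mature sequence on the horizontal axis; grey is the precursor, green the mature sequence and red the seed. The mature sequence lies on the 3′ side of every precursor, and the precursor of bte-mir-996 is the longest at 89 nt.

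The family occupied 3 scaffolds of the assembly Bter_1.0. bte-mir-279a (Group5.1, 7184475 to 7184550) and bte-mir-996 (Group5.1, 7184262 to 7184350) were both on the minus strand with 124 nt between their precursors, so bte-mir-279a comes first in the direction of transcription. The study's manual annotation places this pair in the third intron of POLA2, which encodes subunit B of DNA polymerase alpha, a component of the enzyme that primes DNA replication. bte-mir-279c was on Group2.4 (365840 to 365914, plus strand), and the nearest other entry on that scaffold was 212332 nt away. bte-mir-279b was on Group15.6 (5457615 to 5457693, minus strand), 273 nt from bte-mir-2944 on the same strand. For these latter loci no gene model of the assembly was used here.

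The libraries differed in depth. The early libraries had 204223 to 502540 reads on listed miRNAs and the late libraries 45649 to 257161, and those on the family ran from 1041 to 3057 and from 356 to 1128. Late replicate 4 had the fewest of both and also stood apart in the composition of the family, so the comparisons of stage are given with and without it. Both tissue markers chosen for whole larvae were present in every library: bte-mir-1, typical of muscle, with at least 15773 reads, and bte-mir-124, typical of neurons, with 12 to 35 reads in early and 1 to 8 reads in late libraries (30.8 to 60.8 and 19.6 to 65.3 CPM, reads scaled to a library of 1000000 after normalization by TMM, which overlap). In whole bodies, fewer cells that contain a miRNA and less of it per cell cannot be told apart, which applies to every difference below.

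The family held 10914 reads in all, 0.531% of the listed reads. Its share of the listed reads was 0.609%, 0.582%, 0.520% and 0.380% in the early libraries (replicates 1 to 4) and 0.439%, 0.539%, 0.457% and 0.780% in the late ones. The stages overlapped, with means of 0.522% ± 0.102 (SD, n = 4) in early and 0.554% ± 0.157 (SD, n = 4) in late larvae. The highest value was that of late replicate 4, without which the late minus early difference turned from 0.0311 to −0.0444 percentage points. A sum over the members was not tested.

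Most reads came from a pair of members at different loci. bte-mir-279c had 5189 reads (47.5% of the family) and bte-mir-279a 4580 reads (42.0%), which placed them at ranks 21 and 23 of the 63 distinct sequences. bte-mir-996, although 124 nt from bte-mir-279a, had 1082 reads (9.91%, rank 29). bte-mir-279b had 63 reads (0.577%, rank 57) and was counted in 7 of the 8 libraries. The order of bte-mir-279c and bte-mir-279a was not fixed: bte-mir-279c had the larger share in 3 early and 3 late libraries, and bte-mir-279a in early replicate 2 and late replicate 4. In every library bte-mir-996 was the third and bte-mir-279b the fourth.

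Against this background, early and late larvae were compared to see whether the abundance of each member changed with stage. No member passed the test, and 2 had fold changes above 0 and 2 below. Of the 4 members, 0 were called at an adjusted p under 0.05 by edgeR's quasi-likelihood test, where 32.3% of the 62 sequences tested were called (20, of which 12 were higher and 8 lower in late larvae, the lower ones being 12.9% of those tested). No member had an unadjusted p under 0.05 in the main edgeR fit, where 27 of the 62 sequences did. In some other edgeR fits bte-mir-279b and bte-mir-996 did, for example with scaling by the listed total (edgeR unadjusted p = 0.0301 and 0.0384). DESeq2 also called 0 of the 4, against 25 of 62, with an unadjusted p under 0.05 for 2 members (bte-mir-279b and bte-mir-996) and for 30 of the 62 sequences. The median log2 fold change of the members was −0.20 and that of all sequences tested was 0.18. With scaling by the listed total the split of calls was 11 higher and 14 lower, and with DESeq2 it was 12 and 13. Single libraries moved it further, to 9 higher and 20 lower without late replicate 1 and to 5 and 11 without early replicate 2.

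bte-mir-996 had 351, 296, 118 and 126 reads in the early libraries (replicates 1 to 4) and 85, 50, 50 and 6 reads in the late ones. As normalized counts these were 601, 514, 517 and 494 CPM in early and 377, 408, 458 and 118 CPM in late libraries. Every early library thus lay above every late library, as it did for 19.4% of all sequences tested. The log2 fold change was −0.61 (standard error 0.42, 95% interval −1.50 to 0.28), with an edgeR adjusted p of 0.262 (0.0406 to 0.450 over the alternatives). Relative to the median of all sequences in each fit, bte-mir-996 was lower by between 0.64 and 0.88 on the log2 scale in all 14 alternatives. These alternatives reuse the same libraries and are not independent of each other. In the main fit bte-mir-996 was at rank 17 from the lowest of the 62 fold changes. Only the fit without late replicate 1 gave an adjusted p under 0.05 (edgeR, 0.0406, log2 fold change −1.20). In that fit the median of all sequences was itself −0.51. Relative to it bte-mir-996 was at −0.69, against −0.79 in the main fit. Without late replicate 4 the log2 fold change of bte-mir-996 was −0.37 (edgeR adjusted p = 0.210), or −0.68 relative to the median.

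bte-mir-279a, its neighbour in the intron, had 1217, 1341, 445 and 349 reads in the early libraries (replicates 1 to 4) and 388, 339, 244 and 257 reads in the late ones. The normalized counts were 2085, 2331, 1952 and 1367 CPM in early and 1723, 2765, 2233 and 5047 CPM in late libraries. Late replicate 4 was above all others, and of the remaining late libraries 2 fell within the early range and 1 above it. The log2 fold change was 0.60 (standard error 0.34, 95% interval −0.14 to 1.33, edgeR adjusted p = 0.188). It was 0.21 without late replicate 4, which is −0.11 relative to the median of all sequences in that fit.

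bte-mir-279c had 1477, 1261, 487 and 559 reads in the early libraries (replicates 1 to 4) and 653, 373, 286 and 93 reads in the late ones. Its normalized counts were 2529.9, 2192, 2136 and 2190.1 CPM in early libraries and 2899, 3043, 2618 and 1826 CPM in late libraries. Here late replicate 4 was the lowest of all libraries and the other late libraries were the highest, the opposite of its place for bte-mir-279a. Its log2 fold change was 0.20 (95% interval −0.37 to 0.78, standard error 0.27, edgeR adjusted p = 0.564), which is within 0.02 of the median of all sequences tested. Its sign depended on the scaling, being −0.061 when libraries were scaled by their listed reads, and the value was 0.33 without late replicate 4 (edgeR adjusted p = 0.152).

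bte-mir-279b had 12, 25, 12 and 7 reads in the early libraries (replicates 1 to 4) and 2, 2, 3 and 0 reads in the late ones. The normalized counts were 20.6, 43.4, 52.6 and 27.4 CPM in early and 8.88, 16.3, 27.5 and 0 CPM in late libraries, where the count of 0 allows up to 58.9 CPM (3 counts). The stages overlapped, and counts of 0 to 3 reads per late library leave wide counting errors. The log2 fold change was −1.31 (standard error 0.68, 95% interval −2.75 to 0.13, edgeR adjusted p = 0.140, 0.0691 to 0.291 over the alternatives), and −1.13 without late replicate 4. Its neighbour bte-mir-2944 had 35, 56, 14 and 12 reads in early and 4, 1, 3 and 0 reads in late libraries, and fell by 2.10 on the log2 scale (standard error 0.64, edgeR adjusted p = 0.0181). The adjusted p of bte-mir-2944 was under 0.05 in 12 of 14 alternatives (edgeR or DESeq2, 0.00292 to 0.0643), and its log2 fold change was −1.92 without late replicate 4.

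**Figure D2:**
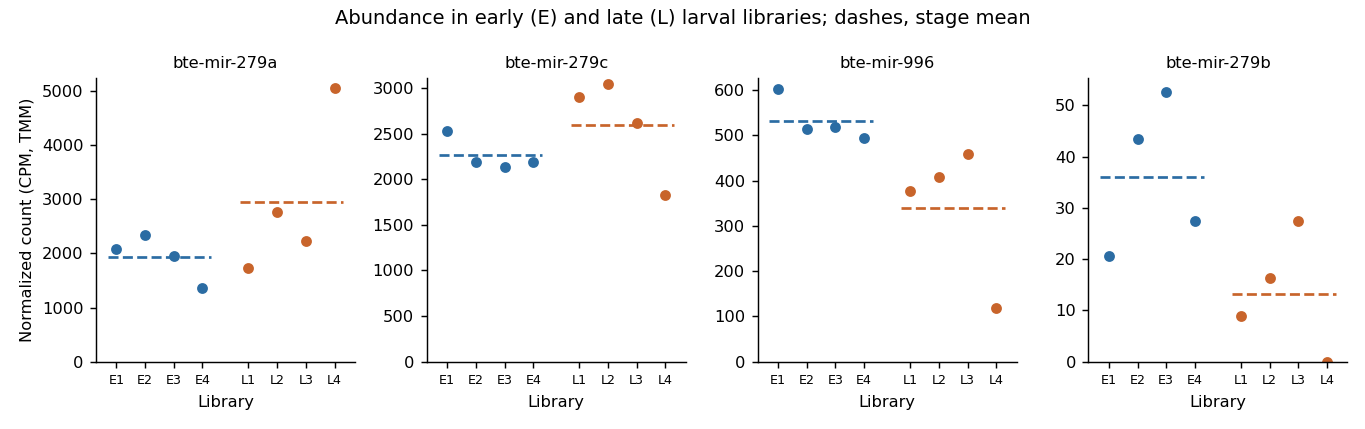
Normalized count (CPM, vertical axes from 0, a scale for each member) in early replicates 1 to 4 (E1 to E4) and late replicates 1 to 4 (L1 to L4); points are libraries and dashes the stage means. All early points of bte-mir-996 (494 to 601 CPM) lie above all late points (118 to 458 CPM), and L4 is the highest library for bte-mir-279a at 5047 CPM.

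**Figure D3:**
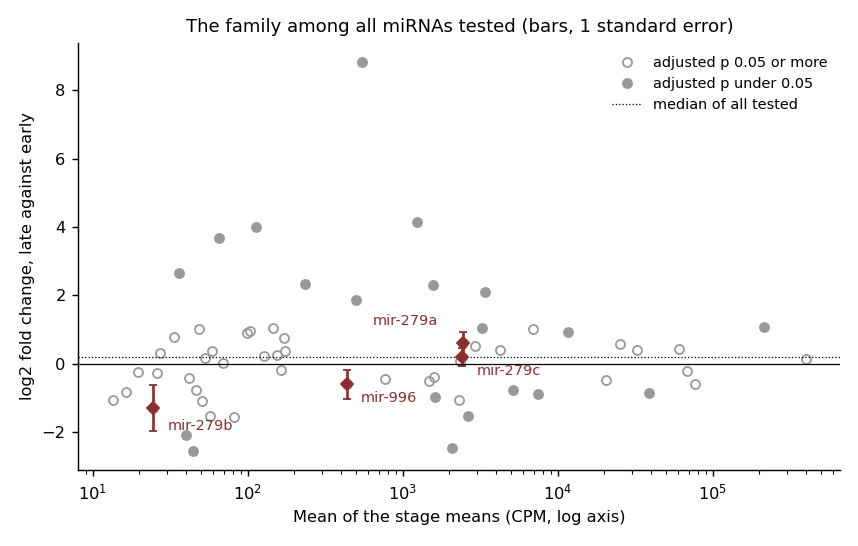
log2 fold change of late against early larvae (vertical axis) against the mean of the stage means in CPM (log axis) for the 62 sequences tested; filled grey points have an edgeR adjusted p under 0.05, red diamonds are the family with 1 standard error. bte-mir-279c (0.20) lies close to the dotted median of 0.18, bte-mir-279a (0.60) above it, and bte-mir-996 (−0.61) and bte-mir-279b (−1.31) below it.

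The balance of the members was then compared between stages. A share within the family does not depend on how libraries are scaled to each other. The share of bte-mir-996 was lower in late larvae, whereas those of the abundant members overlapped between stages. For bte-mir-996 the share of the family reads was 11.5%, 10.1%, 11.1% and 12.1% in the early libraries (replicates 1 to 4) and 7.54%, 6.54%, 8.58% and 1.69% in the late ones. All early libraries were above all late libraries. The mean was 11.2% ± 0.828 (SD, n = 4) in early and 6.09% ± 3.05 (SD, n = 4) in late larvae, a difference of −5.12 percentage points (exact permutation test over libraries, two-sided, p = 0.0286, the smallest that 4 against 4 libraries allow). The counting intervals of the nearest libraries met: early replicate 2 had a 95% Clopper-Pearson interval of 9.06% to 11.3% and late replicate 3 one of 6.43% to 11.2%. Without late replicate 4 the late mean was 7.55% and the difference −3.65 percentage points, again without overlap (exact permutation test, p = 0.0571, the smallest for 4 against 3). The separation depended on the denominator: with bte-mir-279c left out of it the exact permutation p was 0.0571, and as a centred log2 ratio over the 4 members it was 0.143, with the direction kept in both.

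The other shares were tested in the same way, which makes 4 tests of quantities that add up to 100% and are therefore not independent. The p-values were not adjusted over the members alone. bte-mir-279a held 40.3% ± 5.16 (SD, n = 4) of the family in early and 48.2% ± 16.5 (SD, n = 4) in late larvae (exact permutation test over libraries, two-sided, p = 0.514). This gap rested on late replicate 4, where its share was 72.2% (95% Clopper-Pearson interval 67.2 to 76.8) against 34.4% to 44.4% in the other late libraries. Without it the late mean was 40.2% and the difference −0.0717 percentage points, and with the reads of each stage summed the difference was 1.91 in place of 7.92.

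bte-mir-279c held 47.8% ± 4.49 (SD, n = 4) in early and 45.5% ± 13.6 (SD, n = 4) in late larvae (exact permutation test over libraries, two-sided, p = 0.886). Its share was 26.1% in late replicate 4 and 48.8% to 57.9% in the other late libraries, and the difference of −2.28 percentage points turned to 4.17 without that library and to 2.81 with the reads of each stage summed. bte-mir-279b held 0.763% ± 0.310 (SD, n = 4) in early and 0.238% ± 0.214 (SD, n = 4) in late larvae (exact permutation test over libraries, two-sided, p = 0.0571), with overlap between 0.393% in early replicate 1 and 0.515% in late replicate 3. The difference was −0.524 percentage points, and −0.445 without late replicate 4. Its count of 0 in that library allows a share of up to 0.843%.

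**Figure D4:**
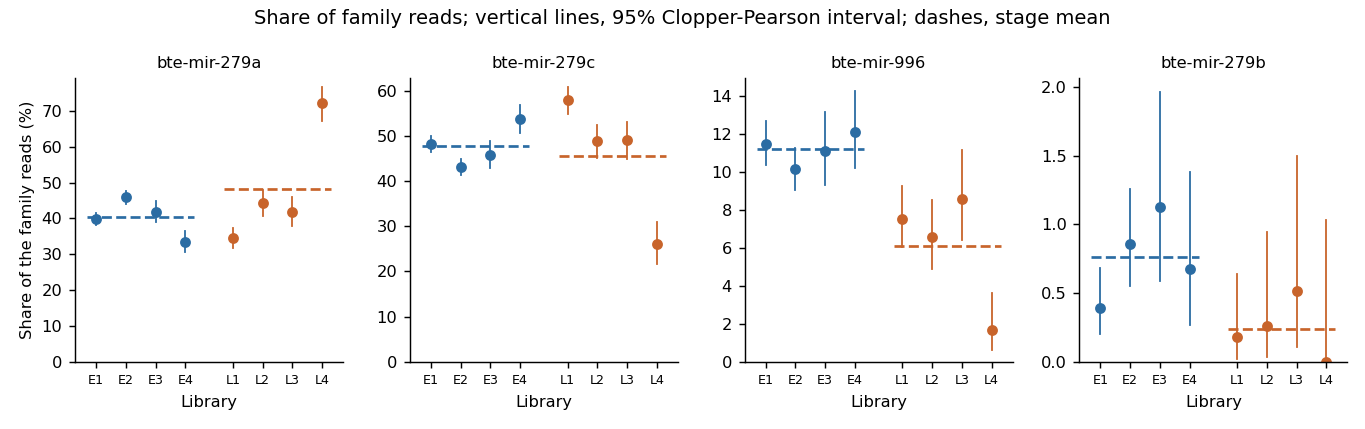
Share of the family reads in percent (vertical axes from 0, a scale for each member) in early (E1 to E4) and late (L1 to L4) libraries; vertical lines are 95% Clopper-Pearson intervals, which cover counting error only, and dashes are stage means. The shares of bte-mir-996 are 10.1% to 12.1% in early and 1.69% to 8.58% in late libraries, and in L4 bte-mir-279a takes 72.2%.

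Within the intron on Group5.1 the balance of the neighbouring hairpins was read as the number of bte-mir-996 reads per 100 reads of bte-mir-279a. It was 28.8, 22.1, 26.5 and 36.1 in the early libraries (replicates 1 to 4) and 21.9, 14.7, 20.5 and 2.33 in the late ones. The stages were separated only narrowly, by early replicate 2 (95% counting interval 19.4 to 25.1) and late replicate 1 (17.1 to 27.8). On the log2 scale, with 0.5 added to both counts, the ratio was −1.84 ± 0.29 (SD, n = 4) in early and −3.13 ± 1.47 (SD, n = 4) in late larvae (exact permutation test over libraries, two-sided, p = 0.0286). The difference of −1.29 was −0.57 without late replicate 4 (exact permutation test, p = 0.0571) and −0.77 with the reads of each stage summed. This ratio reuses the counts of the share tests. Its test is therefore not independent of them, and its p-value was not adjusted.

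The ratio to bte-mir-279c, on another scaffold, was looked at after the shares had been seen and is given as a description. There were 23.8, 23.5, 24.2 and 22.5 reads of bte-mir-996 per 100 reads of bte-mir-279c in early replicates 1 to 4. Their spread on the log2 scale (SD 0.04) was below the counting error of any of these libraries (0.09 to 0.15). In the late libraries there were 13.02, 13.4, 17.5 and 6.45 reads per 100. The early libraries were thus close to each other, while the ratio of bte-mir-279c to bte-mir-279a among the same libraries ran from 94.0 to 160.2 reads per 100. In late libraries this last ratio ran from 36.2 in late replicate 4 to 168.3 in late replicate 1.

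**Figure D5:**
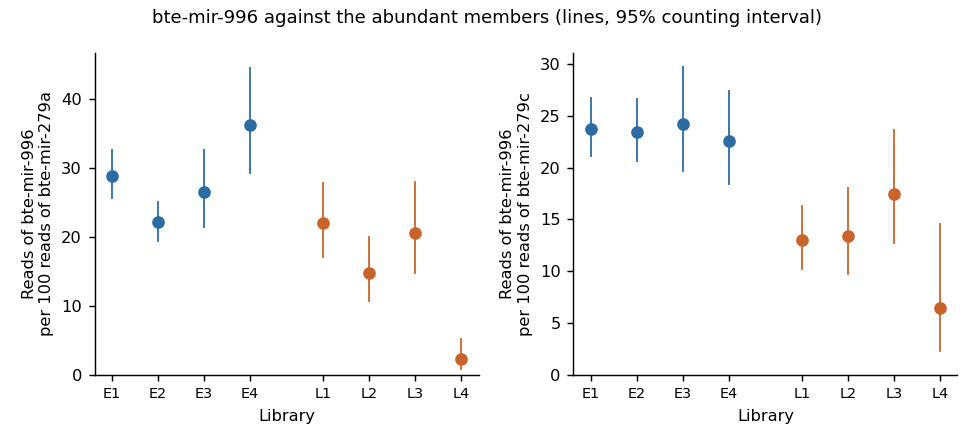
Reads of bte-mir-996 per 100 reads of bte-mir-279a (left) and of bte-mir-279c (right) in early (E1 to E4) and late (L1 to L4) libraries, on axes from 0; lines are 95% counting intervals. Against bte-mir-279c the early libraries lie at 22.5 to 24.2 and the late libraries at 6.45 to 17.5, while against bte-mir-279a the stages nearly meet at 22.1 and 21.9.

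Over the 8 libraries the members also differed in which other miRNAs they resembled most. Likeness was the root mean square difference between centred log2 CPM profiles over the 8 libraries. A small value means that a pair of profiles lay close together. It arises when both moved alike and also when both changed little, so it does not measure common movement. For bte-mir-996 the nearest were bte-mir-9a (0.30), which in Drosophila limits the number of sensory organ precursors, and bte-bantam (0.30), a growth-promoting miRNA, against a median of 0.77 over the 61 others. For bte-mir-279a they were bte-mir-125 (0.29), a miRNA of the let-7 cluster that acts in developmental timing in Drosophila, and MC2238 (0.34), an entry without a miRBase identifier, against a median of 1.02. bte-mir-125 had only 9 to 53 reads per library. For bte-mir-279c the nearest were bte-mir-1 (0.20) and bte-mir-277 (0.23), against a median of 0.66. These profiles themselves changed little between stages (log2 fold change 0.20 for bte-mir-279c, 0.12 for bte-mir-1 and 0.09 for bte-mir-277). For bte-mir-279b the nearest were bte-mir-3785 (0.40) and, within the family, bte-mir-996 (0.47), against a median of 0.93. Without late replicate 4 the nearest pairs changed to bte-mir-317 (0.17) and bte-mir-276 (0.20) for bte-mir-996, MC2238 (0.22) and bte-mir-277 (0.22) for bte-mir-279a, bte-mir-8 (0.09) and bte-mir-1 (0.21) for bte-mir-279c, and bte-mir-133 (0.36) and bte-mir-13b (0.37) for bte-mir-279b. Within the family, bte-mir-279a was then closer to bte-mir-279c (0.28, against 0.64 with all libraries) and to bte-mir-996 (0.38, against 1.14). bte-mir-279b and bte-mir-996 were not closer (0.49, against 0.47). Distances shrank in general without that library. The median over the 61 others was then 0.62 for bte-mir-279a (1.02 with all libraries) and 0.57 for bte-mir-996 (0.77). bte-mir-9a (0.21, rank 3) and bte-bantam (0.25, rank 4) stayed near bte-mir-996. The order of likeness, and the contrast between members, thus rested in part on that library. These profiles share libraries, and the lower depth of late libraries enters all of them.

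As context, 5 miRNAs with a role in sense organs or neurons in Drosophila were listed, of which 3 (bte-mir-9a, bte-mir-7 and bte-mir-124) were analysed here. Of these 3, edgeR called 0 (20 of all 62 sequences), 1 (bte-mir-9a) had an unadjusted p under 0.05 in edgeR (27 of 62), and DESeq2 called 1 (25 of 62). All 3 fold changes were below 0, with a median of −0.45 on the log2 scale against 0.18 for all sequences tested. Counted from the lowest, values below 0 reached up to rank 27 of the 62 sequences. Other miRNAs linked to the nervous system were not on the list. Among these, bte-mir-276 had −0.22, bte-mir-932 had 0.03 and bte-mir-2796 had 1.04. The list therefore does not stand for neuronal miRNAs as a group. The value for bte-mir-9a was −0.60 with a standard error of 0.24 (edgeR adjusted p = 0.0691). It passed 0.05 in 7 of 14 alternatives, with adjusted p-values from 0.000255 to 0.180 (edgeR or DESeq2), and was −0.40 without late replicate 4. bte-mir-7, which acts in photoreceptors and other sense organs, had a log2 fold change of −0.45 (edgeR adjusted p = 0.423). It ran from −1.26 without late replicate 1, the only alternative of 14 that called it (edgeR adjusted p = 0.0210, 0.0210 to 0.658 over the alternatives), to −0.17 without late replicate 4. The median of all sequences was −0.51 in the first of these fits and 0.32 in the second. bte-mir-124, a neuronal miRNA, had one of −0.43 (edgeR adjusted p = 0.556). Leaving out late replicate 4 gave −0.33.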

How the data were processed

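Libraries had been prepared with a 3′ adaptor carrying degenerate bases, to lessen ligation bias. Reads of all 8 libraries were mapped together to Bter_1.0, and the authors deposited raw counts per mature sequence and library, not normalized. The counting program, the treatment of end variants and any removal of duplicate reads are not given in the sources used here. These choices could move reads between members. Columns were matched to libraries by stage initials and replicate number (0 were unmatched). An entry with blank cells (1) was left out, and a mature sequence listed at several loci was counted once, leaving 63 sequences.

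Sequences with at least 10 counts in all (62) entered edgeR 4.0.16 (R 4.3.3) with TMM factors, a quasi-likelihood test of stage and Benjamini-Hochberg adjustment over all of them. A standard error is the size of the log2 fold change over the square root of F. In 20 simulated sets, each with changes of 2 (log2) in 15 of 62 miRNAs, 87.3% were recovered and 3.68% of calls were false; smaller changes were not simulated. Shares and ratios were tested by exact permutation (SciPy 1.17.1). Precursors were folded with RNAfold 2.7.2. Intervals and limits for a count of 0 (3 counts) cover counting error only.

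The alternatives were DESeq2 1.42.0, scaling by the listed total, TMM without bte-mir-1, no filter, all rows kept, a replicate block, each library left out, and other scales and denominators of the shares. The members named were the family, the 2 nearest profiles of each, and the context list, together with the nearest hairpin bte-mir-2944, chosen after its values were seen. Likeness without late replicate 4 was added after its values were seen, as was the ratio of bte-mir-996 to bte-mir-279c. The members, lists and tests were chosen with earlier results of these data known.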

Additional observations from a re-analysis of the deposited data

Results flagged for a closer look

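Among 20 groups of 4 libraries examined (CPM and share of each member, the ratio of bte-mir-996 to bte-mir-279a and the share of the family, by stage), 1 held a library whose gap to the others exceeded Dixon's 95% critical value. This was bte-mir-279c in early replicate 1, at 2529.9 CPM against 2136 to 2192 CPM in the other early libraries. Chance gives about 1 such group in 20. Late replicate 4 did not pass this limit in any group.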

How the results depend on the processing

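The number of miRNAs called (20) was 15 to 29 with a library left out and 18 to 25 in the other fits, 18 with the replicate block. Same-numbered early and late libraries had correlations of −0.12 to 0.07 in their deviations from the stage means. These values cannot tell whether same-numbered libraries share a colony, because counting noise also lowers such correlations. The replicate block was therefore used only as an alternative. A pairing by colony was not tested, because the labels do not say which colony each library came from. With the block no member was called (log2 fold changes 0.49 for bte-mir-279a, −1.34 for bte-mir-279b, 0.18 for bte-mir-279c and −0.72 for bte-mir-996). The log2 fold change of bte-mir-279c was −0.061 with scaling by the listed total, −0.23 without early replicate 2 and −0.35 without late replicate 1 (range with a library left out −0.35 to 0.33), fits in which the median of all sequences was also below 0 (−0.09, −0.26 and −0.51). With a library left out, the difference in share ran from −5.95 to −3.65 percentage points for bte-mir-996, from −0.0717 to 12.5 for bte-mir-279a, from −6.42 to 4.17 for bte-mir-279c and from −0.647 to −0.402 for bte-mir-279b. The log2 ratio of bte-mir-996 to bte-mir-279a then differed by −1.61 to −0.57 (−0.77 with reads summed over libraries), and 4 against 3 libraries cannot go below an exact permutation p of 0.0571. Summed reads gave share differences of −4.28 points for bte-mir-996, 1.91 for bte-mir-279a, 2.81 for bte-mir-279c (a turn of sign) and −0.446 for bte-mir-279b. Without bte-mir-279c in the denominator, the share of bte-mir-996 differed by −9.22 points (exact permutation p = 0.0571) and that of bte-mir-279a by 10.2 points (exact permutation p = 0.0286). As centred log2 ratios, whose centre includes the 0 to 25 reads of bte-mir-279b, the differences were −0.48 for bte-mir-996 (exact permutation p = 0.143), 0.81 for bte-mir-279a (exact permutation p = 0.0286) and 0.48 for bte-mir-279c, a turn of sign (exact permutation p = 0.0571). The lower share of bte-mir-996 kept its direction in all 11 alternatives, but its separation of the stages depended on the denominator. Depth limits bte-mir-279b in all late libraries and bte-mir-996 in late replicate 4 (6 reads).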
